A study of Mus musculus with 6 samples.

Results

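Genes for the proteins of the mitochondrial ribosome were examined in long-term haematopoietic stem cells from mouse bone marrow. Every gene whose symbol begins with Mrpl or Mrps followed by a digit was taken, which gave 76 of the 18193 genes on the arrays, 47 named Mrpl and 29 named Mrps. Probe sets naming a single gene were used, and where a gene had several, the one with the highest mean over the 6 arrays stood for it. The RefSeq gene table lists 78 protein-coding genes with such symbols. The remaining 2, Mrpl30 and Mrpl53, were left out because their probe sets also name another gene.

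The mitochondrial ribosome translates the few messages encoded in mitochondrial DNA, all of which specify subunits of the respiratory chain or ATP synthase. Its proteins are encoded in the nucleus, made in the cytosol and imported, and they assemble with mitochondrial rRNA into a large and a small subunit. Many have a counterpart in bacterial ribosomes, whereas others were added during the evolution of mitochondria. Haematopoietic stem cells at rest are known to rely less on respiration than their dividing progeny, which makes mitochondrial protein synthesis a matter of interest in them.

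The study hybridised RNA from 3 wildtype (Irf8+/+) and 3 knockout (Irf8-/-) samples to Affymetrix Mouse Genome 430 2.0 arrays. Irf8 encodes a transcription factor of the interferon regulatory family, on which monocytes and dendritic cells depend. Cells were sorted as lineage-negative, c-kit+, Sca-1+, CD48- and CD150+, all samples are labelled 3 weeks and untreated, and RNA was amplified before labelling. The sources used here do not give the strain, the deleted part of Irf8 or what the 3 weeks are counted from. The labels call the samples biological replicates without naming animals, so p-values measure only the spread between these samples.

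Values are log2 expression, so a difference of 1 is a doubling, and differences are knockout minus wildtype throughout. The brighter Irf8 probe set read 4.98, 6.43 and 5.16 in wildtype replicates 1 to 3 and 4.91, 6.39 and 6.50 in knockout replicates 1 to 3, a difference of 0.41 (adjusted p = 0.92 in limma). The groups overlapped, so this signal does not test the labels. Of 8 measured stem cell markers all lay above the median gene level of 5.81, with a median difference of 0.04. In knockout replicate 3, however, 6 of the 8 had their lowest value, with a median deviation of -0.89 from their own means, against 0.80 in knockout replicate 1. Cd48, whose product the sort excludes, read at most 4.54 in wildtype but 7.60 and 9.42 in knockout replicates 1 and 2. It was picked from 3 measured genes whose products the sort excludes, with a median difference of 0.34 and 1 of the 3 below 0. In mean level 0 of these 3 lay above the median gene level. The array least like the others was knockout replicate 3, whose correlation with them averaged 0.845, against 0.873 to 0.893 for the rest. Neutrophil markers, 11 of 13 listed being measured, had summed linear levels of 5331 to 8460 in wildtype and 18787 to 59081 in knockout, highest in knockout replicate 3. All 6 measured erythroid markers were below 0 (median difference -0.93), with 3 of them above the median gene level. Their summed linear levels were 4547 to 7979 in wildtype and 2305 to 4511 in knockout. Klf1 (-2.21, SE 0.81) was the 1 of the 6 that was lower without overlap (16.7%, against 4.25% of all genes). Markers of monocytes and macrophages (8 genes), B cells (7) and T and NK cells (7) had median differences of -0.10, -0.12 and -0.04. The part of these marker lists in the results below was not tested, and in these bulk samples fewer cells of a type and less RNA per cell cannot be told apart. High Xist signal in all probe sets was found in 1 array of each group.

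Promoters of the mitoribosomal genes shared short sequence words with one another more often than promoters at large, and 6 of them are shown here because the words can be seen in them. RefSeq promoter sequences on GRCm38.p6 (250 bases before to 50 after the start) were found for 67 of the 76 genes, 73 promoters in all. Each word was searched on both strands. The ETS-family word CCGGAAG, recognised by GABP among other factors, occurred in 34.2% of the members' promoters, against 8.86% of all 32851 promoters and 18.6% of those of genes above the median level. The word GCGCATGCG of nuclear respiratory factor 1 (NRF1) occurred in 9.59%, against 1.75% and 3.85%, and the YY1 word AAGATGGCG in 10.96%, against 1.403% and 3.33%. NRF1, GABP and YY1 are known as activators of nuclear genes for mitochondrial proteins.

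Any of these 3 words was held by 35 of the 67 genes, or 47.9% of promoters against 11.4% overall and 24.0% among genes above the median level. The SP-family word GGGCGG, by contrast, was held by 53.4% of members' promoters, 35.7% of all and 63.3% of those of genes above the median level. The E-box CACGTG stood at 9.59%, 7.15% and 10.4% in the same order, CCAAT at 39.7%, 37.4% and 37.1%, and the TATA word TATAAA at 6.85%, 13.6% and 6.73%. A match is a run of letters and not a binding site, and members' promoters also held more CG dinucleotides (median 21) than promoters at large (median 7), as did those of genes above the median level (median 21).

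Below are the 130 bases before the start, 5′ to 3′ on the strand of the gene, with letters of the ETS-family, NRF1 and YY1 words in capitals. The first pair, Mrps22 (chr9:98601680-98601809, minus strand) and Mrpl39 (chr16:84735245-84735374, minus strand), belong to genes that read lower in every knockout array and hold an ETS-family and an NRF1 word. Mrpl32 (chr13:14613038-14613167, minus strand) has the most NRF1 matches, Mrpl22 (chr11:58171534-58171663, plus strand) holds ETS-family and NRF1 words together, and Mrpl36 (chr13:73330879-73331008, plus strand) holds the YY1 word before its start. Mrpl24 (chr3:87919414-87919543, plus strand), the member that read higher in every knockout array, holds none of the 3 in this window. The first pair were picked from the genes without overlap because they hold a word. Of the 8 lower genes without overlap that have a promoter, 4 hold any of the 3 words, as do 35 of all 67 member genes. In Mrpl39 and Mrpl32 a run that reads alike on both strands counts as 2 overlapping NRF1 matches.
Mrps22: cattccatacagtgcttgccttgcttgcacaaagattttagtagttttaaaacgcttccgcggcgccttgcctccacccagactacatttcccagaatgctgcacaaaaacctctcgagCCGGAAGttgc
Mrpl39: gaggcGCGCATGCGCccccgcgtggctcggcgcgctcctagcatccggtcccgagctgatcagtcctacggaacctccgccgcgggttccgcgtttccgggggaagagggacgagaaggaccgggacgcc
Mrpl32: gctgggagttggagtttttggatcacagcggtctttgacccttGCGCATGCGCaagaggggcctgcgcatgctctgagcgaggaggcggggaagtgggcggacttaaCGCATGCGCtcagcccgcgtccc
Mrpl22: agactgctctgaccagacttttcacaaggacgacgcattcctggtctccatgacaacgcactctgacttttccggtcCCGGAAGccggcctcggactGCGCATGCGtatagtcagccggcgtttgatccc
Mrpl36: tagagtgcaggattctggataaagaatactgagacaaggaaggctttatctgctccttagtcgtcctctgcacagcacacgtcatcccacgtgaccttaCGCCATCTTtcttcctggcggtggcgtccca
Mrpl24: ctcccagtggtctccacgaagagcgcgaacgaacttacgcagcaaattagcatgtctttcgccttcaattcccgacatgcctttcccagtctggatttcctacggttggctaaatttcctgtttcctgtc

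Between genotypes, most mitoribosomal genes read lower in the knockout arrays, but the 95% interval of the difference covered 0 for 68 of the 76. The difference was below 0 for 53 of 76 genes and above 0 for 23, with a median of -0.32. It was below -1 for 15 members and above 1 for 2. Together these were 22.4% of members, against 14.8% of all genes and 22.4% of genes above the median level. When each gene's probe sets were averaged, the median was -0.16, with 52 below 0. Over all 18193 genes the median was 0.07, with 43.4% below 0. Because 75 of the 76 members lay above the median gene level, the 9096 genes above that level are a closer yardstick, and their median was -0.05 with 52.9% below 0. The adjusted p (limma, Benjamini-Hochberg over all genes) passed 0.05 for 0 members, where 0.0% of all genes passed, and the smallest among members was 0.887. Before adjustment 880 genes in all had p under 0.05.

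At an unadjusted p under 0.05 in limma, 7 of 76 members were lower and 1 was higher in knockout, where 2.44% and 2.4% of all genes were. Of the 9096 genes above the median level 338 were lower and 177 higher. Both directions together held 10.5% of members, 4.84% of all genes and 5.66% of genes above the median level. Without wildtype replicate 1 or without wildtype replicate 2 the number of members with p under 0.05 was 3, or 3.95%, near the 3.79% and 3.92% of all genes under the same settings. All 3 knockout arrays lay below all 3 wildtype arrays for 9 members, or 11.8%, where 4.25% of all genes and 6.30% of genes above the median level did so. The opposite order was found for 1 member, or 1.32%, where 6.67% of all genes and 4.89% of those above the median level showed it. With probe sets whose names carry none of the marks _a_, _s_ and _x_ (several transcripts, or sequences shared with other genes), which left 62 members, these counts were 4 and 0, or 6.45% and 0%, where 4.13% and 6.62% of all genes did so.

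**Figure D1:**
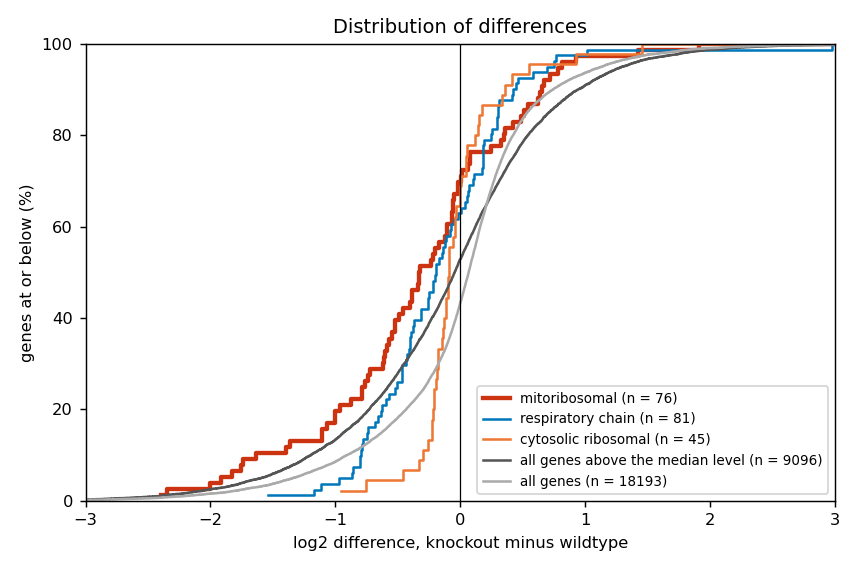
Cumulative share of genes (%, vertical axis) at or below each log2 difference, knockout minus wildtype (horizontal axis), for 76 mitoribosomal, 81 respiratory chain and 45 cytosolic ribosomal genes, for all 18193 genes and for the 9096 above the median level. The mitoribosomal curve crosses 0 at 69.7%, against 43.4% for all genes and 52.9% for genes above the median level.

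Small subunit genes stood lower than large subunit genes in median, though the difference between the subunits was not tested. Of 26 small subunit genes 20 were below 0 (median -0.48), and of 49 large subunit genes 33 were (median -0.22). Within the small subunit, the 16 proteins with a bacterial counterpart had a median of -0.39 and the 10 without one -0.52. Within the large subunit the 29 with a counterpart had a median of -0.06 and the 20 without one -0.28. Here Mrps18a and Mrps30 are counted in the large subunit, where their proteins reside in spite of their names. Mrps36, the remaining member, whose protein is now known as a part of the 2-oxoglutarate dehydrogenase complex, differed by 0.06 (SE 0.77).

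**Figure D2:**
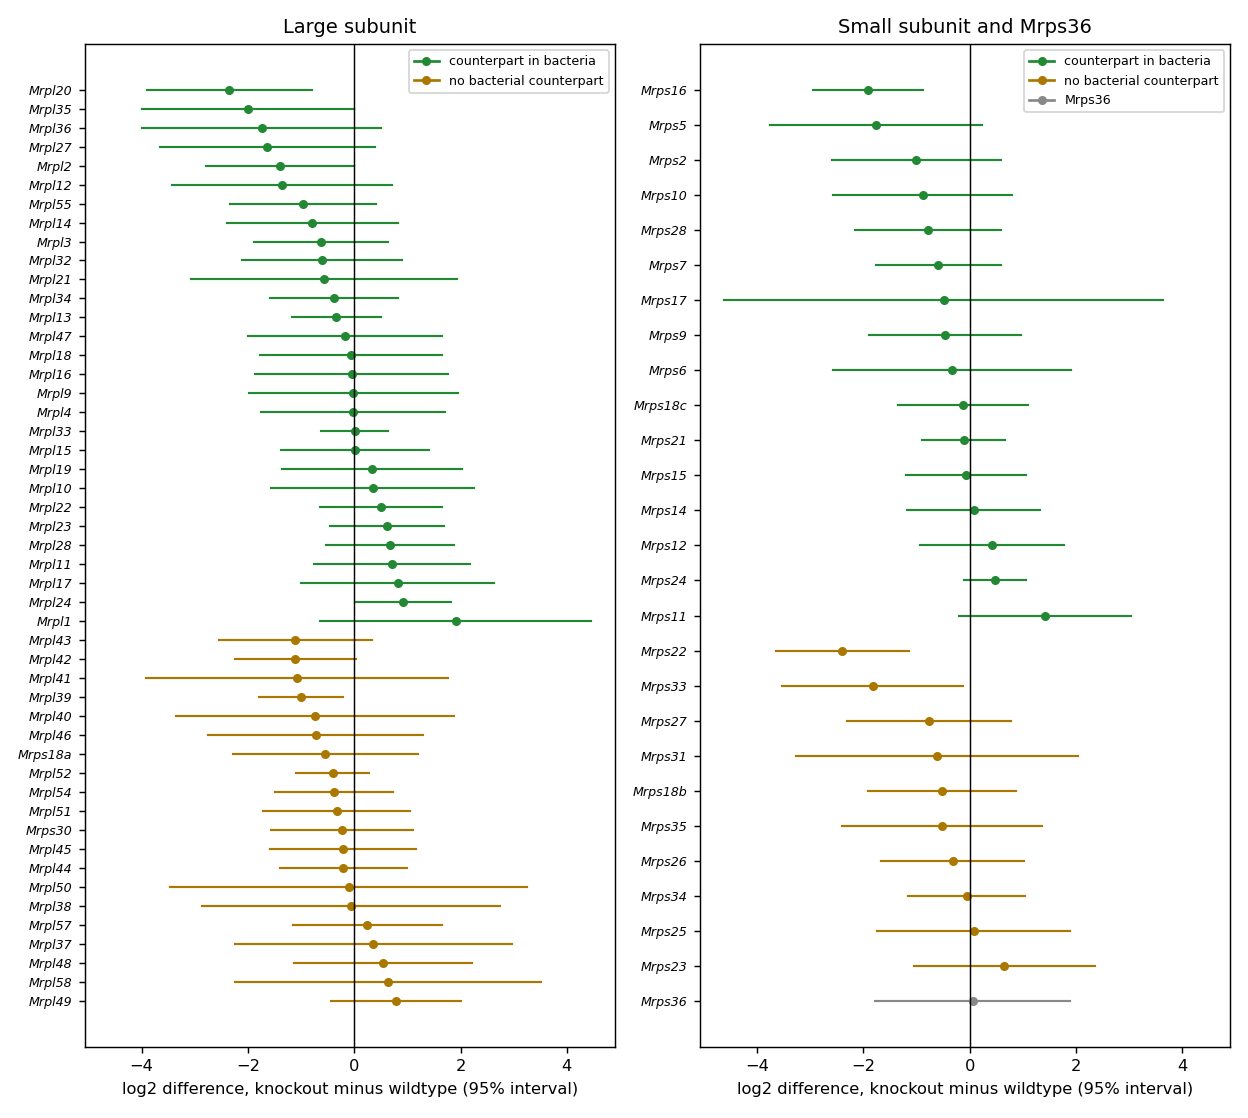
Log2 difference, knockout minus wildtype, of each mitoribosomal gene with its 95% interval from limma (horizontal axis), large subunit on the left and small subunit with Mrps36 on the right, coloured by whether bacteria have a counterpart. The interval covers 0 for 68 of the 76 genes.

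Mrps22 and Mrps16, both of the small subunit, gave the smallest p-values among members. Mrps22, a mitochondria-specific protein, read 8.34, 8.52 and 8.56 in wildtype and 6.73, 6.06 and 5.46 in knockout replicates 1 to 3. All knockout arrays were thus well below all wildtype arrays, by 5.26-fold in the means. The difference was -2.39 (SE 0.52), unadjusted p = 0.0028, limma adjusted p = 0.887. Its promoter is the first of those printed above, with CCGGAAG beginning 11 bases before the start.

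Mrps16, the counterpart of bacterial S16, read 9.90, 9.64 and 9.66 in wildtype and 7.88, 7.55 and 8.03 in knockout. It was even within each group, with SDs of 0.15 and 0.25 (n = 3 each), and did not overlap between them. The difference was -1.92 (SE 0.43, 3.78-fold lower), and it stayed between -2.02 and -1.78 when any 1 array was left out. Both genes have 1 probe set on the array, so no other probe set bears on them.

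Mrps33 and Mrps7 were the other small subunit genes without overlap. Mrps33, a small mitochondria-specific protein, read 10.49, 9.88 and 9.32 in wildtype and 8.48, 9.005 and 6.72 in knockout. Knockout replicate 3 lay farthest below, and the difference of -1.83 (SE 0.71) was -1.15 without that array. Mrps7, the counterpart of bacterial S7 in the head of the small subunit, read 8.11, 8.66 and 8.02 against 7.78, 7.33 and 7.93. Its groups were barely apart, with a difference of -0.59 (SE 0.50) whose 95% interval ran from -1.77 to 0.60, and it was -0.39 without wildtype replicate 2.

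Among large subunit genes, Mrpl20, Mrpl2 and Mrpl39 showed lower values without overlap. Mrpl20, the counterpart of bacterial L20, an early-binding assembly protein, read 8.30, 8.47 and 10.17 in wildtype and 6.38, 6.84 and 6.68 in knockout. Knockout arrays were close to one another and wildtype replicate 3 was high, giving a difference of -2.35 (SE 0.65, 5.10-fold lower), or -1.75 without wildtype replicate 3. Mrpl2, the counterpart of L2 near the peptidyl transferase centre, read 8.32, 8.06 and 9.37 against 7.27, 6.67 and 7.61, a difference of -1.398 (SE 0.59). Here too wildtype replicate 3 was the highest array.

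Mrpl39, a mitochondria-specific protein, read 12.05, 11.65 and 11.16 in wildtype and 11.05, 10.15 and 10.65 in knockout, with the lowest wildtype just above the highest knockout array. The difference was -1.003 (SE 0.34). Its other probe set differed by -0.60 (SE 0.52), with overlap between groups. Mrpl55, placed as the counterpart of bacterial L31, read 8.26, 8.11 and 9.40 against 8.09, 7.25 and 7.56 (difference -0.96, SE 0.58), and -0.55 without wildtype replicate 3. Mrpl54, another mitochondria-specific protein, read 7.14, 7.28 and 7.82 against 7.11, 7.10 and 6.87. Those groups were nearly in contact, at -0.39 (SE 0.47) and -0.19 without wildtype replicate 3, and a dimmer probe set of Mrpl54 differed by 1.79 (SE 0.87) in the opposite direction.

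Mrpl24 was the only member with higher values in knockout without overlap. This counterpart of L24, a protein that starts the assembly of the large subunit in bacteria and sits near the exit of the peptide tunnel, read 9.49, 9.06 and 9.80 in wildtype and 10.01, 10.62 and 10.49 in knockout. The difference was 0.92 (SE 0.38), a 1.90-fold higher level, unadjusted p = 0.045, limma adjusted p = 0.887. It has 1 probe set, and leaving out any 1 array gave 0.73 to 1.10. The name of that probe set marks it (_a_) as matching several transcripts of the gene. The probe sets used for Mrps16, Mrpl20, Mrpl39, Mrps33, Mrpl55 and Mrps7 carry the same mark.

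**Figure D3:**
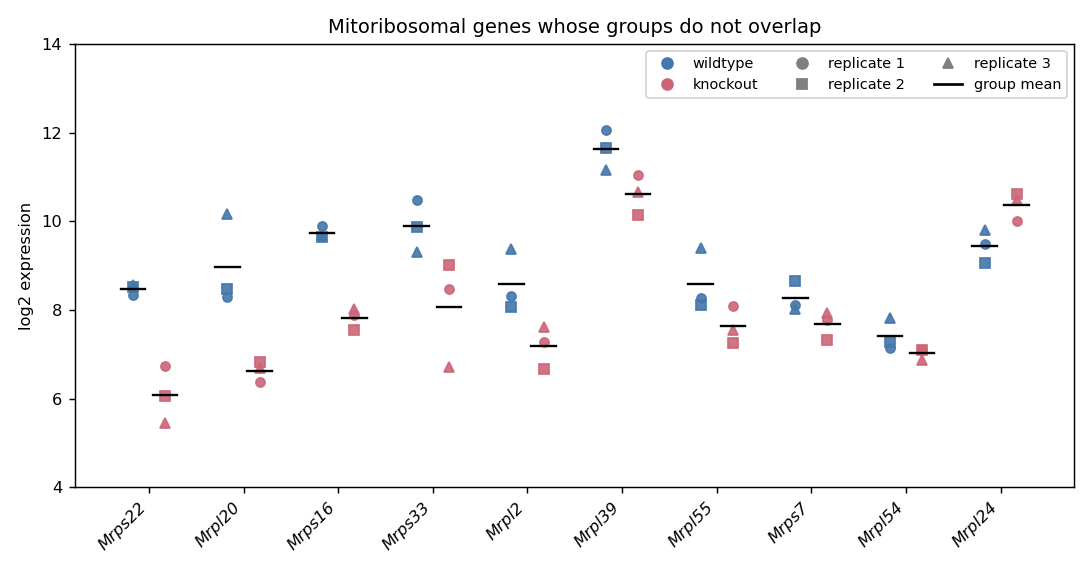
Log2 expression (vertical axis) of the 10 mitoribosomal genes whose groups do not overlap, ordered by difference, with wildtype arrays in blue, knockout arrays in red, replicates by symbol shape and group means as bars. Knockout arrays lie below wildtype arrays for 9 genes, from Mrps22 (-2.39) to Mrpl54 (-0.39), and above them for Mrpl24 (0.92).

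The next genes by p had overlapping groups. Mrpl35, the counterpart of L35, read 8.06, 9.02 and 8.94 in wildtype and 8.30, 6.36 and 5.36 in knockout, so that knockout replicate 1 lay among the wildtype arrays. Its difference of -2.004 (SE 0.84) became -0.90 when its probe sets were averaged and -1.35 in the absence of knockout replicate 3. The other probe sets of Mrpl35 were dim, with mean levels of 4.24 and 3.57. Mrpl42, a mitochondria-specific protein of the large subunit, read 12.38, 11.87 and 11.73 against 10.002, 11.90 and 10.76. Knockout replicate 2 matched wildtype there, and the difference of -1.11 (SE 0.48) became -0.66 in the absence of knockout replicate 1. It became -0.51 when the probe sets of Mrpl42 were averaged. The other probe set, however, read only 2.19 to 2.63 over the arrays and differed by 0.10 (SE 0.14).

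Mrps5, the counterpart of S5 at the entry of the messenger channel, read 8.26, 8.56 and 9.28 in wildtype and 5.36, 8.36 and 7.11 in knockout, a difference of -1.75 (SE 0.84), with -0.96 without knockout replicate 1. Of its 5 probe sets another differed by -2.77 (SE 0.54) without overlap, while a further one differed by 0.12 (SE 1.11). Mrps11, the counterpart of S11, went the other way, at 6.91, 7.14 and 8.23 in wildtype and 7.85, 8.999 and 9.67 in knockout. Only wildtype replicate 3 and knockout replicate 1 crossed, and the difference was 1.42 (SE 0.68), with 0.70 for the mean of probe sets. The other probe set of Mrps11 read only 2.77 to 3.66 and differed by -0.03 (SE 0.29).

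Members that varied most did so inside the knockout group. Mrps17, the counterpart of S17, read 7.40, 8.76 and 7.33 in wildtype but 10.03, 8.87 and 3.13 in knockout, and its difference turned from -0.49 (SE 1.73) to 1.61 without knockout replicate 3. Mrpl41 read 10.01, 10.73 and 9.76 against 11.19, 9.82 and 6.28. The low value again came from knockout replicate 3, without which the difference of -1.07 became 0.34. Mrpl58, a peptidyl-tRNA hydrolase built into the large subunit that releases chains from stalled ribosomes, read 7.70, 7.77 and 6.66 against 5.26, 8.83 and 9.96. Its difference of 0.64 (SE 1.21) was -0.33 without knockout replicate 3 and -1.89 in its other probe set, which reads below the median gene level.

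Mitochondrial ribosomes have 3 relatives of bacterial S18. Mrps18c, which takes the place of S18 in the small subunit, read 10.05, 9.52 and 8.89 in wildtype and 9.96, 9.34 and 8.79 in knockout, a difference of -0.12 (SE 0.51). The groups covered the same range, and the sign turned without wildtype replicate 1 (0.16) or knockout replicate 3 (0.17). Mrps18b, also in the small subunit, differed by -0.52 (SE 0.58), from 8.33 ± 0.64 to 7.81 ± 0.55 (SD, n = 3 each), and by -0.16 without wildtype replicate 1. Mrps18a, of the large subunit, differed by -0.54 (SE 0.73), from 7.85 ± 0.68 to 7.31 ± 1.10. It differed by -0.12 without knockout replicate 3. The 95% intervals ran from -1.34 to 1.10 for Mrps18c, from -1.91 to 0.87 for Mrps18b and from -2.28 to 1.19 for Mrps18a. Sizeable changes either way were thus not excluded.

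For a few members the arrays set a tighter bound. Mrpl33, the counterpart of L33, read 10.44, 10.56 and 10.42 in wildtype and 10.73, 10.30 and 10.41 in knockout. The values were nearly level, with a difference of 0.01 (SE 0.27) and an interval from -0.63 to 0.64. Mrps21, the counterpart of S21, differed by -0.11 with an interval from -0.89 to 0.67. These were chosen after their values were seen. Over all members the median half-width of the interval was 1.52, so a doubling of a typical member could not be told from no change.

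Array by array, the members moved by little as a group. The median deviation of the 76 genes from their own means was 0.13, 0.16 and 0.10 in wildtype replicates 1 to 3 and -0.10, -0.11 and -0.21 in knockout. All knockout arrays were thus on the other side of 0 from all wildtype arrays, and 47, 49 and 45 genes lay above their own mean in wildtype against 34, 30 and 33 in knockout. Respiratory chain genes stood at 0.13, 0.08 and 0.08 in wildtype and at 0.00, -0.13 and -0.03 in knockout replicates 1 to 3. Cytosolic ribosomal genes stood at 0.03, 0.05 and 0.05 against 0.01, -0.05 and -0.04. Genes above the median level stood at 0.05, 0.02 and 0.05 against 0.03, -0.01 and -0.04. Without knockout replicate 3 the median difference of the members was -0.26, with 48 of 76 genes below 0, where all genes then had a median of 0.00 and 49.7% below 0.

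Knockout replicate 3 was the lowest or highest of the 6 arrays for 42 of the 76 genes (55.3%), and for 45.3% of genes above the median level, and it had the highest neutrophil marker signal. In that array the subunits went apart, with a median deviation of 0.11 for the large and -0.62 for the small subunit, and 11 of 26 small subunit genes (42.3%) had their lowest value there, as did 24.3% of genes above the median level. In knockout replicate 2 the small subunit stood at 0.00 and the large at -0.20, and in knockout replicate 1 they stood at -0.23 and -0.06. The order of the subunits therefore was not the same in every knockout array. The range over the 6 arrays exceeded 2 for 61.8% of members, against 56.8% of genes above the median level.

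**Figure D4:**
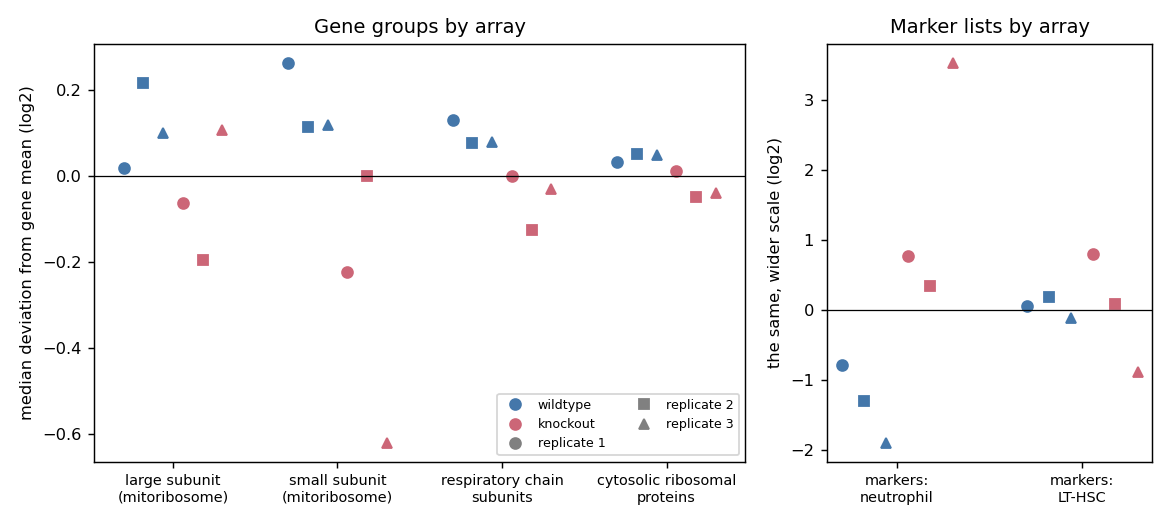
Median deviation (log2) of gene groups from each gene's mean over the 6 arrays, by array, for mitoribosomal large and small subunit, respiratory chain and cytosolic ribosomal genes on the left, and for neutrophil and stem cell marker lists on the right on a wider scale. Small subunit genes reach -0.62 in knockout replicate 3, where neutrophil markers reach 3.53.

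Respiratory chain genes, whose mitochondrially encoded partners the mitoribosome makes, had 51 of 81 members below 0 with a median of -0.20. Without overlap 11 of the 81 (13.6%) lay lower and 4 (4.94%) higher, against 4.25% and 6.67% of all genes. Among all genes above the median level, where 77 of the 81 lay, the shares were 6.30% and 4.89%. The pair with the smallest p were Cox7c, of complex IV, at 2.97 (SE 0.41), and Uqcr10, of complex III, at -0.97 (SE 0.33). Cytosolic ribosomal protein genes had 31 of 45 below 0 with a median of -0.09. Without overlap 5 were lower and 5 higher (11.1% each), against 4.25% and 6.67% of all genes and 6.30% and 4.89% of those above the median level. Differences in both lists were smaller in size, with median absolute values of 0.38 and 0.15 against 0.54 for mitoribosomal genes, whose median SE of 0.64 was also larger than theirs of 0.38 and 0.11. In these lists, too, 0 genes passed in limma after adjustment over all genes, with 6 genes at an unadjusted p under 0.05 in each. Those 6 were 7.41% of respiratory chain and 13.3% of cytosolic ribosomal genes, against 4.84% of all genes and 5.66% of those above the median level. The difference between these lists and the mitoribosomal genes was not tested.

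In the other lists of mitochondrial gene expression 0 genes passed the adjusted threshold in limma. An unadjusted p under 0.05 was found for 3 assembly genes (Nsun4, Noa1 and Gtpbp10), 3 synthetases (Mars2, Sars2 and Iars2) and 1 gene of transcription and RNA stability (Tfb2m), and for 0 in the rest. In that order these were 12%, 18.8% and 12.5% of the lists, against 4.84% of all genes and 5.66% of those above the median level. Of 4 measured mitoribosomal proteins with other symbols 3 were below 0, with Chchd1, a small subunit protein, at -0.66 (SE 0.58) and Gadd45gip1, of the large subunit, at -0.41 (SE 0.51). Among 25 genes of mitoribosome assembly and rRNA modification 13 were below 0 (median -0.06). Without overlap 2 were lower and 2 higher (8% each), against 4.25% and 6.67% of all genes. Nsun4, an rRNA methyltransferase that acts in subunit joining, read 5.43, 5.93 and 5.54 in wildtype and 8.26, 7.26 and 10.59 in knockout, a difference of 3.06 (SE 0.88). Noa1, a GTPase of small subunit assembly, read 9.97, 8.20 and 9.25 against 4.84, 7.02 and 7.59, a difference of -2.66 (SE 0.88). These genes thus went opposite ways, each without overlap between groups, as did Gtpbp10 (-2.11, SE 0.75) and Mrm3 (0.72, SE 0.46).

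Of 9 translation factors 5 were below 0 and 0 lacked overlap, with the initiation factor Mtif3 at -1.23 (SE 0.68) and the recycling factor Gfm2 at 1.29 (SE 0.75). The 16 mitochondrial aminoacyl-tRNA synthetases were split 8 and 8, with the methionyl enzyme Mars2 at -1.39 (SE 0.36) and the seryl enzyme Sars2 at 1.39 (SE 0.40), each without overlap, as were Iars2 (-2.12, SE 0.74) and Tars2 (1.08, SE 0.50). The synthetases without overlap were 12.5% in each direction, against 4.25% lower and 6.67% higher among all genes. Mars2 read under the median gene level on all 6 arrays. Of 8 genes of mitochondrial transcription and RNA stability 5 were below 0, with the transcription factor Tfb2m at -1.76 (SE 0.70) and the poly(A) polymerase Mtpap at 1.57 (SE 0.67).

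Factors known to drive nuclear genes for mitochondria were measured as transcripts as well, and 7 of 10 were below 0 (median -0.38). Gabpa, the ETS subunit of GABP, read 8.42, 9.18 and 9.80 in wildtype and 8.35, 8.61 and 6.35 in knockout, a difference of -1.36 (SE 0.76). Its lowest value came from knockout replicate 3, and the groups overlapped. Gabpb1, the partner of Gabpa in GABP, read 8.61, 8.92 and 8.70 against 7.91, 8.35 and 4.62 (difference -1.78, SE 1.01). It was the 1 factor without overlap, or 10% of them, where 4.25% of all genes were lower without overlap. Gtpbp10, Mrm3, Iars2, Tars2 and Gabpb1 were named after their values were seen. The 2 with the smallest p were Ppargc1a, a coactivator of mitochondrial biogenesis that read under 4 on all arrays, at 0.45 (SE 0.25), and Gabpa. Nrf1 differed by 0.20 (SE 0.77) and Yy1 by -0.54 (SE 0.34). Members holding an ETS-family word in their promoter had a median difference of -0.33 (25 genes) and those without -0.28 (42 genes). For NRF1 the medians were -0.02 (7 genes) and -0.33 (60 genes), and for YY1 -0.65 (8 genes) and -0.32 (59 genes), none of which was tested.

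Probe sets of the same member often disagreed. Several probe sets were present for 42 of the 76 genes, and for 34 of those they gave opposite signs. Counting only probe sets above the median gene level, 14 of 24 genes still had opposite signs, and 18 of 36 further probe sets had the sign of the brightest. Signs were counted at any size of difference, also where it was smaller than its SE. The same shares over all genes were not counted, so this is not shown to be particular to the members. Mrpl52, a mitochondria-specific protein of the large subunit, was a gene with accord, at -0.40, -0.56 and -0.65 in its 3 probe sets above that level. Mrps2, the counterpart of S2, differed by -1.001 in its brightest and by 1.25 in its other bright probe set, and Mrpl3 by -0.62 and -2.96. Mrpl52, Mrps2 and Mrpl3 were chosen after their values were seen. Of the 10 genes without overlap 8 had 1 probe set and could not be checked in this way.

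**Figure D5:**
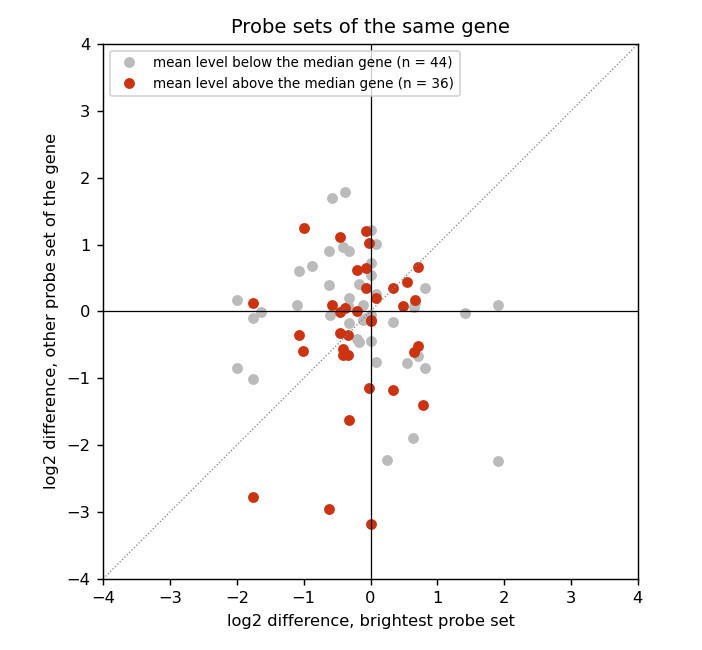
Log2 difference, knockout minus wildtype, of further probe sets (vertical axis) against that of the brightest probe set of the same mitoribosomal gene (horizontal axis), in red for the 36 whose mean lies above the median gene level and in grey for the 44 below it. Of the red points 18 lie in the quadrants where both signs match.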

How the data were processed

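The deposited values are log2 expression, 1 per probe set and array, for 45037 probe sets. Per the submitters' processing notes, the authors used RMA, Affymetrix Expression Console and Partek. Versions and settings are not stated there. Array medians of 4.85 to 4.96 were left as deposited. The platform annotation gave 1 gene for 34945 probe sets, several for 932 and none for 9160. By Entrez number 34741 matched RefSeq and 0 symbols changed. No filter on level was applied. Precision is limited by the 3 arrays per group.

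Knockout was compared with wildtype over all 18193 genes by lmFit and eBayes of limma 3.58.1 under R 4.3.3, with a trend of variance on level, Benjamini-Hochberg adjustment and a threshold of 0.05. Standard errors and 95% intervals are from that fit, which was tested on simulated data. Tables and promoter counts were made with pandas 2.3.3 and numpy 2.4.6 (Python 3.11.15), and figures with matplotlib 3.10.9.

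Members and lists were chosen with earlier results of these data known. Named members are those whose groups do not overlap, the next 4 by unadjusted p, the 3 with the largest SD within a group and the S18 family; exceptions are marked. From other lists up to 2 genes with the smallest p were named, with Nrf1, Yy1 and the markers in addition. A planned description of protein sequences was not analysed here. Alternatives covered moderation, array weights, probe set choice, a filter, scaling, a replicate block and leaving out each array.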

Additional observations from a re-analysis of the deposited data

How the results depend on the processing

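The median difference of the mitoribosomal genes stayed below 0 under all 14 alternatives. It was -0.16 when each gene's probe sets were averaged and -0.25 with array weights, and ran from -0.42 to -0.24 when 1 array was left out. The number below 0 ran from 47 to 52 of 76 when 1 array was left out. At an unadjusted p under 0.05 there were 3 members with probe sets free of the marks _a_, _s_ and _x_ (plain ones; 4.84%, against 4.57% of all genes), 5 with a replicate block (same-numbered arrays did not deviate together, with correlations of -0.02, -0.01 and -0.01; 6.58%, against 4.61% of all genes), and 3 to 11 with 1 array left out (3.95% to 14.5%, against 3.79% to 6.62%). Without overlap, 9 were lower and 1 higher in the main fit, and 4 were lower and 0 higher with plain probe sets. Quantile normalization gave 7 lower (9.21%, against 4.68% of all genes) and 2 higher (2.63%, against 6.28%). Arrays centred on their median gave 7 lower (9.21%, against 4.49%) and 1 higher (1.32%, against 6.10%). With 1 array left out 10 to 18 were lower and 3 to 8 higher, where 7.62% to 10.03% of all genes were lower and 10.5% to 16.1% higher, since fewer arrays overlap less often. Over all genes 1 gene passed with averaged probe sets and 1 with arrays centred on their median, neither a member. Members past the adjusted threshold stayed at 0 in all of them.

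Of 272 values of 20 named genes 262 kept their direction. Mrps17 turned to 0.34 with array weights and 1.61 without knockout replicate 3. With averaged probe sets Mrpl54 turned to 0.70 and Mrpl58 to -0.63. Mrpl58 also turned to -1.89 with plain probe sets and -0.33 without knockout replicate 3. Mrps5 turned to 0.12 with plain probe sets. Mrpl41 turned to 0.34 without knockout replicate 3, and Mrps18c to 0.17 without it and 0.16 without wildtype replicate 1. With 1 array left out Mrps17 ran from -1.83 to 1.61, Mrpl41 from -2.12 to 0.34, Mrpl58 from -0.33 to 2.02 and Mrps18c from -0.42 to 0.17. The cause was not tested.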
